A study of Equus caballus with 19 samples.

Results

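Genes that move zinc and iron across membranes or store iron were followed in equine tenocytes, the resident cells of tendon, exposed to interleukin-1 beta (IL-1β). The 10 members were chosen by name, with earlier results of these data known. They were the zinc importers SLC39A8, SLC39A14, SLC39A6 and SLC39A10, the zinc exporter SLC30A1, the iron uptake genes TFRC, SLC11A2 and STEAP4, the iron exporter SLC40A1 and the iron store FTH1. Of these, 9 had a row among the 29196 gene names of each table, and SLC39A14 was not analysed here. The cells were wild-type primary tenocytes from the superficial digital flexor tendon of horses, one line per donor, and every group was grown in 3D gels of bovine type I collagen in medium with fetal bovine serum until day 14. In the first batch, lines 1 to 5 were each kept as control or with 1 nM IL-1β (10 libraries). In the second batch, lines 6 to 8 were each kept as control, with 1 nM IL-1β, or with 1 nM IL-1β and 100 ng/ml IL1Ra, the natural antagonist of the IL-1 receptor (9 libraries). No group received IL1Ra alone, and each line gave 1 library per condition.

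Cells take up zinc through ZIP transporters (SLC39 family) and release it through ZnT transporters (SLC30 family), and free zinc in the cytosol is kept very low. Iron bound to transferrin enters through the transferrin receptor, is reduced in endosomes and crosses into the cytosol through DMT1, while ferritin stores the surplus and ferroportin is the known cellular exporter of iron. In inflammation, zinc and iron are withdrawn from body fluids into cells, and in macrophages this involves less ferroportin and more ferritin.

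Values are normalised counts per gene, scaled by the authors within each batch, and the 2 batches were therefore tested separately. Library sums were 43.4 to 49.2 M normalised counts for the first batch and 24.96 to 34.6 M for the second, so low genes carry more counting error in the latter. Normalised counts are not divided by gene length, and levels were not compared between genes. Genes were called DE when limma gave an adjusted p below 0.05 together with a log2-fold change of 1 or more in either direction (fitted on log2(normalised count + 1), Benjamini-Hochberg adjustment over all genes tested), and the log2-fold changes below are on that scale. A gene had to reach 10 normalised counts in 5 or more first-batch libraries, or in 3 or more second-batch libraries, to be tested. This filter kept 7 members for the first batch and 8 for the second.

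Some markers of cell type differed between the conditions. Of 7 tested tenocyte markers, 6 fell with IL-1β in the first batch, among them COL1A1 and SCX. The other, DCN, was higher in 5 of 5 lines (log2-fold change 0.73, not DE). In the second batch DCN was at 29947 to 55627 in control and 85795 to 170170 with IL-1β. The summed level of the 8 listed tenocyte markers that had a row was 1005500 to 1785470 in first-batch controls and 424915 to 802118 with IL-1β. That sum mostly reflects COL1A1 and COL1A2, with medians of 582578 and 730770 in control. TNMD, a marker of mature tenocytes, was under 10 in every library. The summed level of 4 mural cell markers was 8082 to 14746 in control and 2301 to 3176 with IL-1β, with 3 of the 4 downregulated. Among 5 endothelial markers, ERG fell from 588 to 1634 normalised counts in control to 39.3 to 159 with IL-1β, PECAM1 was higher with IL-1β in 5 of 5 lines (log2-fold change 1.68, DE with the tenocyte line as a block), VWF was not DE, and CDH5 and TEK were under 10 in every first-batch library. In the second batch 0 of 7 tenocyte markers were DE between IL-1β and control by limma, with 0 at an unadjusted p under 0.05 (2 fell with the line as a block), and their sums overlapped, at 237029 to 849379 and 304121 to 458474. Line 6 differed there from lines 7 and 8: SCX was at 4720 in its control and at 266 and 105 in theirs, and COMP at 51392, 1069 and 131. First-batch controls, normalised separately, had SCX at 822 to 2110 and COMP at 5057 to 104386. Lines 7 and 8 lay below both ranges and line 6 below neither, so fits without line 6 rest on the lines with low SCX and COMP. The part of these shifts in the results below was not tested. In the first batch the 10 macrophage and leukocyte markers summed to 58.3 to 2076 in control and 312 to 3713 with IL-1β, with CD68 upregulated. The highest sums were those of line 5, where CD14 was at 1947 and 2811 and ITGAM at 42.7 and 55.3, while the median of CD14 was 0 in each condition. In the second batch CD14 reached 1195 in control, 1262 with IL-1β and 1482 with both agents. The other 7 of the 10, including PTPRC and CSF1R, were under 10 in every library of both batches. In bulk RNA, fewer cells of a type and less RNA per cell cannot be told apart.

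In the first batch, IL-1β raised TFRC and SLC11A2 of the iron uptake route and the zinc exporter SLC30A1, and lowered the iron exporter SLC40A1, while the third uptake gene, STEAP4, was too low to test. Of the 7 members tested, 4 were DE, where 12.8% of all tested genes were, with TFRC, SLC11A2 and SLC30A1 upregulated (4.91% of all tested genes were DE and higher) and SLC40A1 downregulated (7.9% of all tested genes were DE and lower). At an unadjusted p under 0.05 there were 6 of 7 members, against 39.5% of all genes. The median log2-fold change was 1.31 over the 7 members and −0.0034 over all genes. Because the members were chosen with earlier results known, their excess over all genes may follow in part from that choice. When the tenocyte line entered the fit as a block, so that each line was compared with itself, FTH1 was also DE, giving 4 members higher (6% of all genes) and 1 lower (10.2%), or 5 of 7 (16.2%).

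TFRC encodes the transferrin receptor, which carries transferrin-bound iron into the cell. Its normalised counts in control lines 1 to 5 were 3329, 5229, 8195, 4764 and 4449, and with IL-1β they were 17519, 16098, 24074, 15633 and 25042. Every IL-1β library lay above every control library, and lines 3 and 5 were the highest with IL-1β. The log2-fold change was 1.96 (SE 0.230, n = 5 lines per condition), a 3.88-fold rise (limma with Benjamini-Hochberg adjustment, adjusted p = 2.78e-04). TFRC was higher with IL-1β in 5 of 5 lines, with within-line log2 ratios of 1.55 to 2.49.

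SLC11A2 encodes DMT1, which moves ferrous iron out of the endosome into the cytosol. As control, lines 1 to 5 had 808, 1369, 889, 999 and 821 normalised counts, and the IL-1β libraries had 5537, 4765, 6252, 5093 and 4988. The groups were far apart relative to the spread between lines, and line 2, the highest control, had the lowest IL-1β value. The log2-fold change of 2.47 (SE 0.147, n = 5) was a 5.53-fold rise (limma with Benjamini-Hochberg adjustment, adjusted p = 5.25e-06). It stayed DE when any of the 5 lines was left out, at 2.38 to 2.64.

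SLC40A1 encodes ferroportin, the iron exporter. The controls of lines 1 to 5 had 4448, 3717, 3376, 4244 and 3435 normalised counts, and the IL-1β libraries had 3064, 1755, 1198, 856 and 2219. All IL-1β libraries lay below all control libraries, but the drop was uneven, with line 4 the lowest and line 1 close to the control range. The log2-fold change was −1.21 (SE 0.295, n = 5), which is 2.31-fold lower (limma with Benjamini-Hochberg adjustment, adjusted p = 0.0123). The within-line log2 ratios ran from −0.54 in line 1 to −2.31 in line 4. Without line 4 the log2-fold change was −0.94 (adjusted p = 0.0358), under the fold threshold.

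FTH1 encodes the heavy chain of ferritin, which oxidises iron as it is stored. The control libraries of lines 1 to 5 had 25429, 11102, 15026.5, 8854 and 729.8 normalised counts, and the IL-1β libraries had 365724, 59462.5, 124171, 30223 and 3884. Lines differed more than conditions did, with a range of 34.8-fold among controls and 94.2-fold among IL-1β libraries, and line 5 was the lowest in both. The groups therefore overlapped, although FTH1 was higher with IL-1β in 5 of 5 lines, by log2 ratios of 1.77 to 3.85. Its log2-fold change of 2.70 (SE 1.23, n = 5) did not pass the test (limma with Benjamini-Hochberg adjustment, adjusted p = 0.129), whereas with the line as a block the SE was 0.279 and the adjusted p was 8.04e-04. Without line 5, it was DE at 2.77 (adjusted p = 0.0332). Ferritin heavy chain genes have near-identical copies in mammalian genomes, so the authors' assignment of reads could have split them, and the level of FTH1 is uncertain.

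**Figure D1:**
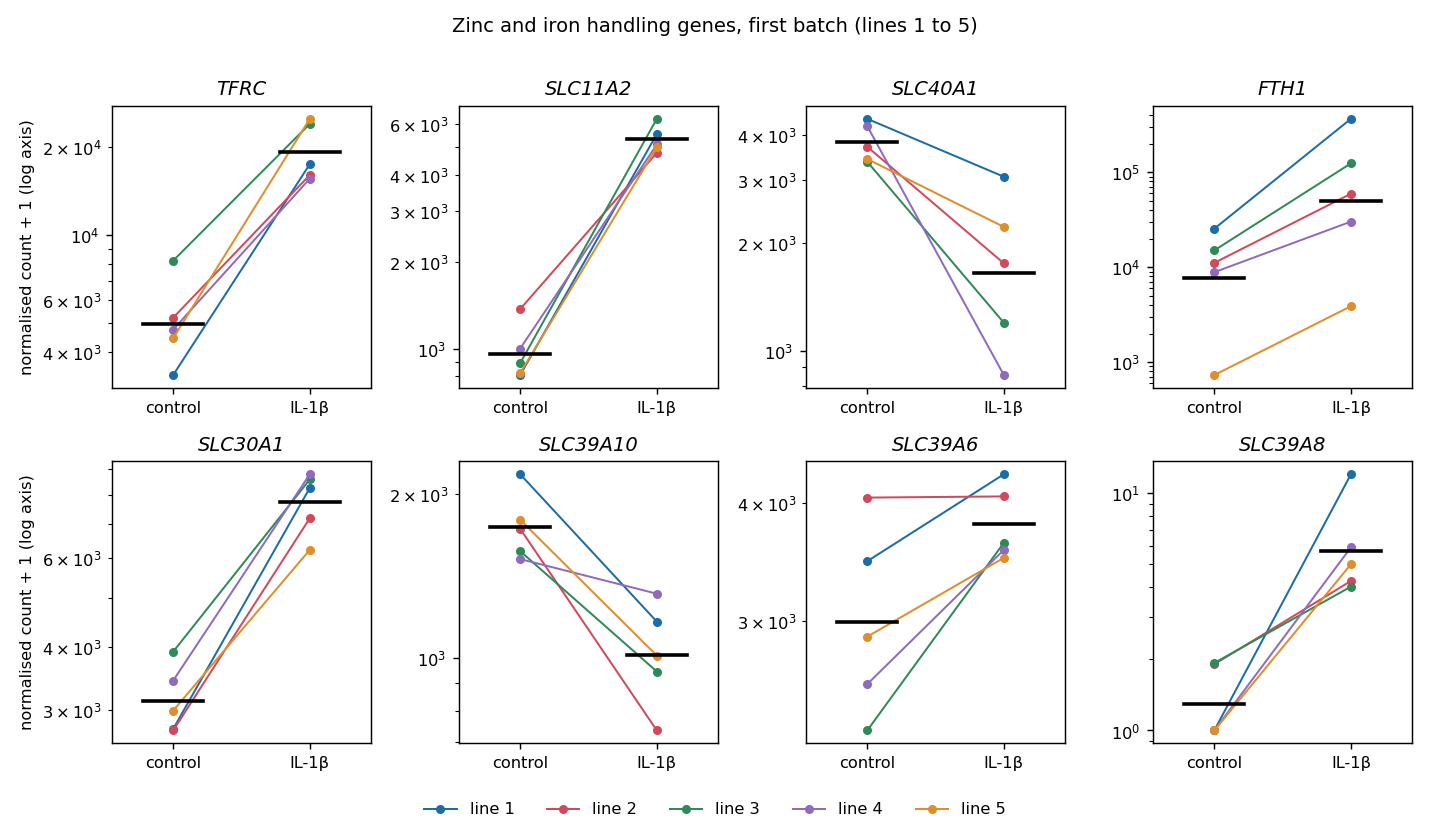
Normalised counts (log axis, 1 added) of 8 members in the first batch, with 1 point per library, coloured lines joining the 2 libraries of a tenocyte line (1 colour per line) and black bars at the mean of the log2 values. TFRC, SLC11A2 and SLC30A1 lay wholly higher with IL-1β and SLC40A1 and SLC39A10 wholly lower, while FTH1 was higher in every line from very different starting levels (729.8 to 25429 in control).

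Among the zinc genes that were tested, the exporter changed most. SLC30A1 encodes ZnT1, the zinc exporter of the plasma membrane, and its transcription is known to respond to zinc through MTF1. Control lines 1 to 5 had 2746, 2727, 3905, 3423 and 2986 normalised counts, and the IL-1β libraries had 8246, 7181, 8571, 8775 and 6215. No IL-1β library came near the control range, and lines within a condition differed by no more than 1.43-fold. The log2-fold change was 1.31 (SE 0.131, n = 5), a 2.47-fold rise (limma with Benjamini-Hochberg adjustment, adjusted p = 1.31e-04).

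SLC39A10 encodes ZIP10, a zinc importer of the plasma membrane. Lines 1 to 5 had 2169, 1723, 1568, 1516 and 1789.5 normalised counts as control, and the IL-1β libraries had 1164, 735, 942, 1309.5 and 1008. The IL-1β libraries lay below the controls without overlap, by the least in line 4. The log2-fold change of −0.78 (SE 0.160, n = 5) had an adjusted p of 0.00548 (limma with Benjamini-Hochberg adjustment) but was under the fold threshold, so SLC39A10 was not DE.

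SLC39A6 encodes ZIP6, the closest relative of ZIP10. Control lines 1 to 5 had 3471, 4056, 2295, 2570 and 2886 normalised counts, against 4294, 4067, 3632, 3569 and 3501 with IL-1β. The groups overlapped, and the IL-1β libraries were closer to each other than the controls were. The log2-fold change was 0.35 (SE 0.148, n = 5, adjusted p = 0.109 by limma with Benjamini-Hochberg adjustment, and 0.0290 with the line as a block).

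SLC39A8 encodes ZIP8, a zinc importer that also carries other divalent metals, and it was scarcely detected. Control lines 1 to 5 had 0, 0.899, 0.923, 0 and 0 normalised counts, and the IL-1β libraries had 10.98, 3.26, 3.03, 4.90 and 4.01. All 5 IL-1β libraries were above all controls, at a mean of 5.23 ± 3.29 (SD, n = 5). That mean was 1.745-fold a floor of 3 normalised counts, but it rested largely on line 1 (10.98). Lines 2 and 3 (3.26 and 3.03) were barely above the floor. SLC39A8 failed the filter on low values and was not tested. Its highest control value was 0.923, so a looser filter would admit it through the IL-1β libraries alone, and no log2-fold change or p-value is given.

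STEAP4 encodes a metalloreductase that reduces iron and copper. The 5 controls, lines 1 to 5, had 56.6, 8.57, 4.55, 11.4 and 8.60 normalised counts, and the IL-1β libraries had 3.57, 9.21, 7.08, 29.2 and 9.75. The groups overlapped. With IL-1β, STEAP4 was higher in 4 of 5 lines, by log2 ratios of 0.09 to 1.28, and lower in line 1, at −3.66. Most of these values were low, and STEAP4 was not tested in the first batch.

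Of the 7 tested members, TFRC, SLC11A2 and SLC30A1 lay higher with IL-1β without overlap between the groups, and SLC40A1 and SLC39A10 lay lower. SLC39A8 and STEAP4, which were not tested, are left out here. Of all tested genes, 9.34% lay higher and 10.2% lower without overlap. In each of the 5 lines, TFRC, SLC11A2 and SLC30A1 rose and SLC40A1 fell. These were taken as the DE members of the same libraries, so this follows in part from their choice. FTH1 and SLC39A6 were also higher, and SLC39A10 lower, in all 5 lines. Of all tested genes 24.8% were higher and 25% lower in every line. The log2 ratio of TFRC to SLC40A1, the genes of iron entry and exit, changed by 3.17 ± 0.504 (SD, n = 5 lines) with IL-1β. That value restates the rise of TFRC and the fall of SLC40A1 and is not a separate result.

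The second batch addressed whether IL1Ra alters the response. With IL-1β alone, 0 of 8 tested members were DE and 4 had an unadjusted p under 0.05 (limma with Benjamini-Hochberg adjustment), where 0.341% of all tested genes were DE (0.269% higher and 0.0718% lower) and 11.4% had such a p. With the line as a block, 3 members were DE and higher, TFRC, SLC11A2 and FTH1, where 5.18% of all genes were DE and 2.59% were DE and higher. The median log2-fold change was 0.63 over the 8 members and −0.0084 over all genes. Here too the choice of members with earlier results known limits the comparison with all genes.

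TFRC had 6872, 2688 and 1581 normalised counts in control lines 6, 7 and 8, then 22868, 12477 and 11934 with IL-1β and 12877, 4605 and 6524 with IL-1β and IL1Ra. The IL-1β libraries were above all controls, and in every line the library with IL1Ra lay between the other two. The log2-fold change with IL-1β was 2.29 (SE 0.582, n = 3, limma with Benjamini-Hochberg adjustment, adjusted p = 0.175, and 0.00912 with the line as a block). Without line 6, TFRC was DE at 2.565 (adjusted p = 0.0276).

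SLC11A2 had 904, 752 and 776.5 normalised counts in control lines 6 to 8, 3515, 3398 and 4050 with IL-1β, and 1341, 4300.0 and 2921 with IL-1β and IL1Ra. Controls and IL-1β libraries were narrow groups far apart, while the IL1Ra libraries were spread widely, from near control in line 6 to above IL-1β alone in line 7. The log2-fold change with IL-1β was 2.17 (SE 0.372, n = 3, limma with Benjamini-Hochberg adjustment, adjusted p = 0.0618, and 0.0194 with the line as a block). It was DE in a fit of the control and IL-1β libraries only (adjusted p = 0.0183) and without line 6 (2.28, adjusted p = 0.0203).

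SLC40A1 had 2946, 3440 and 3031 normalised counts in control lines 6 to 8, 1898, 1514 and 452 with IL-1β, and 2632, 3192 and 511 with IL-1β and IL1Ra. IL-1β libraries lay below all controls. With IL1Ra, lines 6 and 7 were close to control and line 8 stayed near its value with IL-1β alone. The log2-fold change with IL-1β was −1.52 (SE 0.744, n = 3), which did not pass the test (limma with Benjamini-Hochberg adjustment, adjusted p = 0.490, and 0.111 with the line as a block).

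FTH1 had 8063, 7549 and 29293 normalised counts in control lines 6 to 8, 29396, 102951 and 191756 with IL-1β, and 12334, 71601 and 137869 with IL-1β and IL1Ra. The lowest IL-1β library, line 6, was just above the highest control, line 8, and each line was higher with IL-1β than as control. The log2-fold change with IL-1β was 2.78 (SE 1.03, n = 3, limma with Benjamini-Hochberg adjustment, adjusted p = 0.343, and 0.0226 with the line as a block).

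SLC30A1 had 2994, 1823 and 2098 normalised counts in control lines 6 to 8, 11378, 3081 and 3765 with IL-1β, and 4629, 5842 and 3665 with IL-1β and IL1Ra. IL-1β libraries were above all controls, by most in line 6, and the IL1Ra libraries were also above all controls. The log2-fold change with IL-1β was 1.18 (SE 0.470, n = 3, limma with Benjamini-Hochberg adjustment, adjusted p = 0.392, and 0.115 with the line as a block). Without line 6 it was 0.80.

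Neither zinc importer tested in the second batch was DE. SLC39A10 had 688, 1444 and 1777 normalised counts in control lines 6 to 8, 752, 534 and 938 with IL-1β, and 710, 637 and 1234 with both agents, so the low control of line 6 lay among the treated libraries. SLC39A6 had 2209, 2227 and 2182 in control, 2116, 2462 and 2469 with IL-1β, and 1743, 2243 and 2266.5 with both. Their log2-fold changes with IL-1β were −0.74 (SE 0.410) and 0.09 (SE 0.158, 95% interval −0.27 to 0.45, turning to −0.10 when values were rescaled to equal library sums), and neither passed the test (limma with Benjamini-Hochberg adjustment). Without line 6, SLC39A10 was at −1.18 (adjusted p = 0.252).

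SLC39A8 was at 0 in all 3 libraries of line 6, and lines 7 and 8 had 5.49 and 3.47 normalised counts in control, 5.69 and 9.50 with IL-1β, and 2.92 and 3.25 with both agents. It was again too low to test, and the controls of lines 7 and 8 exceeded every control of the first batch, which was normalised separately. STEAP4 had 5.54, 44.6 and 16.6 in control lines 6 to 8, 20.2, 3.11 and 67.4 with IL-1β, and 51.6, 2.62 and 4.01 with both. It rose in 2 lines and fell in 1 with IL-1β, with a log2-fold change of 0.06 (SE 1.35, 95% interval −3.04 to 3.16), so no direction was resolved.

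**Figure D2:**
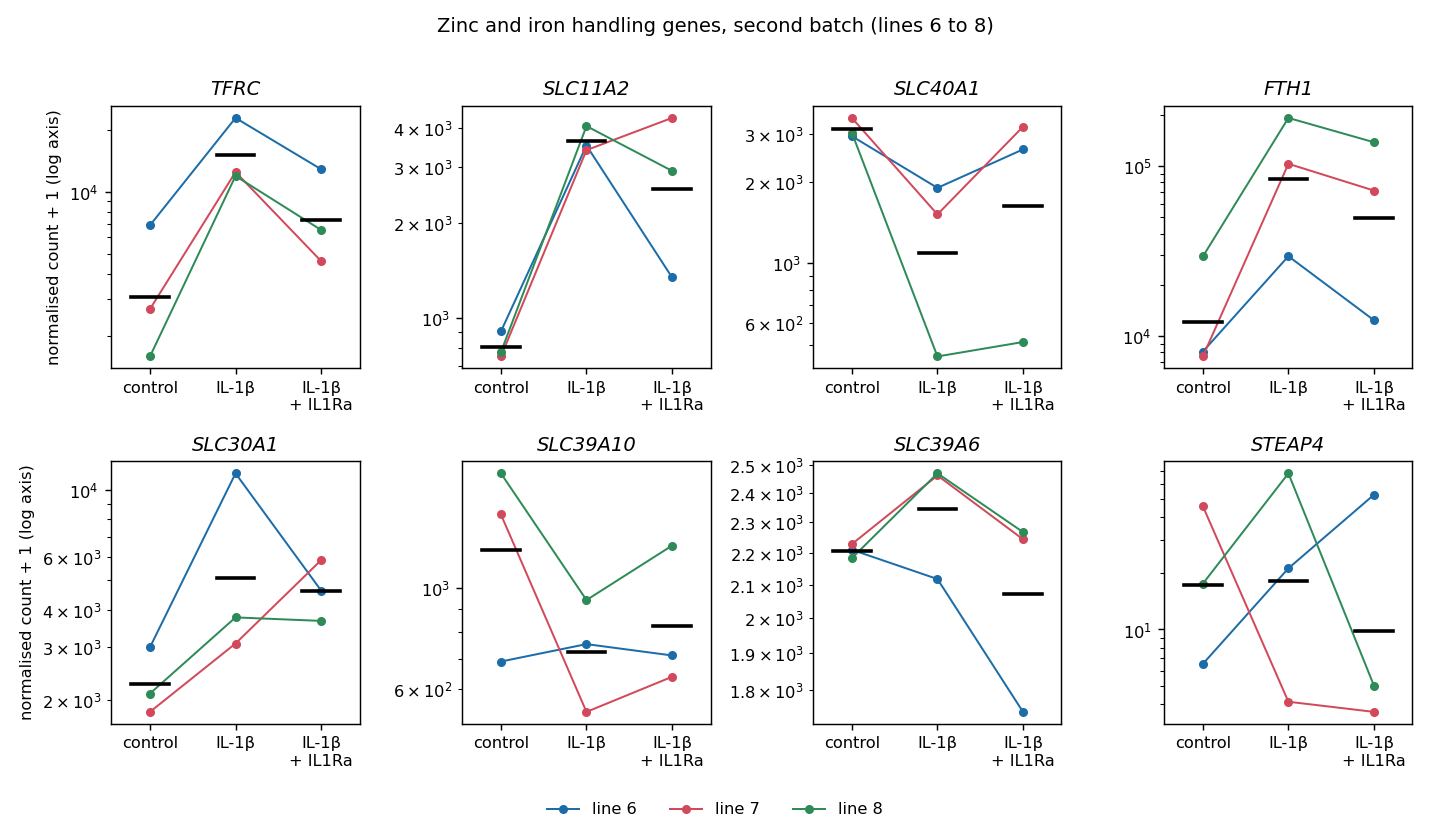
Normalised counts (log axis, 1 added) of 8 members in the second batch as control, with IL-1β and with IL-1β and IL1Ra, with 1 point per library, coloured lines joining the libraries of a tenocyte line (1 colour per line) and black bars at the mean of the log2 values. TFRC with IL1Ra lay between control and IL-1β in all 3 lines, while SLC11A2 (1341 to 4300.0) and SLC40A1 (511 to 3192) with IL1Ra spread from near control to near IL-1β alone.

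In the second batch, 4 members were higher with IL-1β than in any control (TFRC, SLC11A2, FTH1 and SLC30A1, against 8.82% of all tested genes) and 1 was lower (SLC40A1, against 7.61%). In 3 of 3 lines TFRC, SLC11A2 and SLC30A1, DE in the first batch, were higher and SLC40A1 was lower (19.1% of all genes were higher and 18.9% lower in every line). The log2 ratio of TFRC to SLC40A1, which again restates their 2 changes, changed by 3.81 ± 1.68 (SD, n = 3 lines).

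Between IL-1β with IL1Ra and IL-1β alone, 0 of 8 members were DE and 0 had an unadjusted p under 0.05 (limma with Benjamini-Hochberg adjustment, all adjusted p rounding to 1.00), where 0% of all tested genes were DE and 2.78% had such a p. With the line as a block 0 members and 0.00599% of all genes were DE. No member was without overlap between these groups, where 3.12% of all genes lay higher and 3.35% lower. TFRC was lower with IL1Ra in each of lines 6 to 8 (16.8% of all genes were), by a log2-fold change of −1.05 (SE 0.582, 95% interval −2.38 to 0.29). SLC40A1 was higher in 3 of 3 lines (15.6% of all genes were), at 0.57 (SE 0.744, 95% interval −1.13 to 2.28). FTH1 was lower in 3 of 3 lines, at −0.75 (95% interval −3.11 to 1.61). With the line as a block the intervals were narrower, at −1.70 to −0.39 for TFRC (SE 0.282, unadjusted p = 0.00684 by limma, adjusted p = 0.359), −0.52 to 1.67 for SLC40A1 and −1.88 to 0.37 for FTH1. The interval of TFRC then did not reach 0, but TFRC did not pass the adjustment over all genes. The share of all genes with such an interval was not counted in the fit with the block. SLC11A2 was lower in 2 of 3 lines, at −0.51 (95% interval −1.36 to 0.35), and SLC30A1 in 2 of 3 lines, at −0.14 (95% interval −1.21 to 0.94), which turned to 0.44 without line 6.

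Between IL-1β with IL1Ra and control, which shares its control libraries with the comparison of IL-1β and control, 0 of 8 members were DE and 1, SLC11A2, had an unadjusted p under 0.05 (limma with Benjamini-Hochberg adjustment), where 0.012% of all tested genes were DE and 5.67% had such a p. SLC11A2 was 1.66 (SE 0.372) and SLC30A1 1.04 (SE 0.470) above control on the log2 scale. Both lay above control without overlap, as 5.79% of all genes did, and 0 members lay below (5.96% of all genes). With the line as a block 0 members were DE (0.251% of all genes). TFRC was 1.242 (SE 0.582), FTH1 2.03 (SE 1.03) and SLC40A1 −0.95 (SE 0.744) relative to control. In all 3 lines TFRC, SLC11A2 and SLC30A1 were above and SLC40A1 below the control of the same line, where 20.1% of all genes were higher and 19% lower in every line.

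The share of the IL-1β change that was left with IL1Ra, on the log2 scale and for lines in which IL-1β changed the gene by at least 1, was 52.2%, 35.1% and 70.1% for TFRC in lines 6, 7 and 8 (mean 52.5% ± 17.5, SD, n = 3). SLC11A2 had 29.1%, 115.6% and 80.2% (mean 75.0% ± 43.5), and FTH1 had 32.9%, 86.1% and 82.4% (mean 67.1% ± 29.7). For SLC40A1 it was 9.12% in line 7 and 93.5% in line 8. SLC30A1 had 32.6% in line 6 and SLC39A10 had 82.2% in line 7. The low genes gave erratic shares, with STEAP4 at 176.9%, 105.2% and −92.4% in lines 6, 7 and 8 and SLC39A8 at −6.04% in line 8. Line 6 kept the smallest share for SLC11A2 and FTH1, and line 7 the smallest for TFRC.

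**Figure D3:**
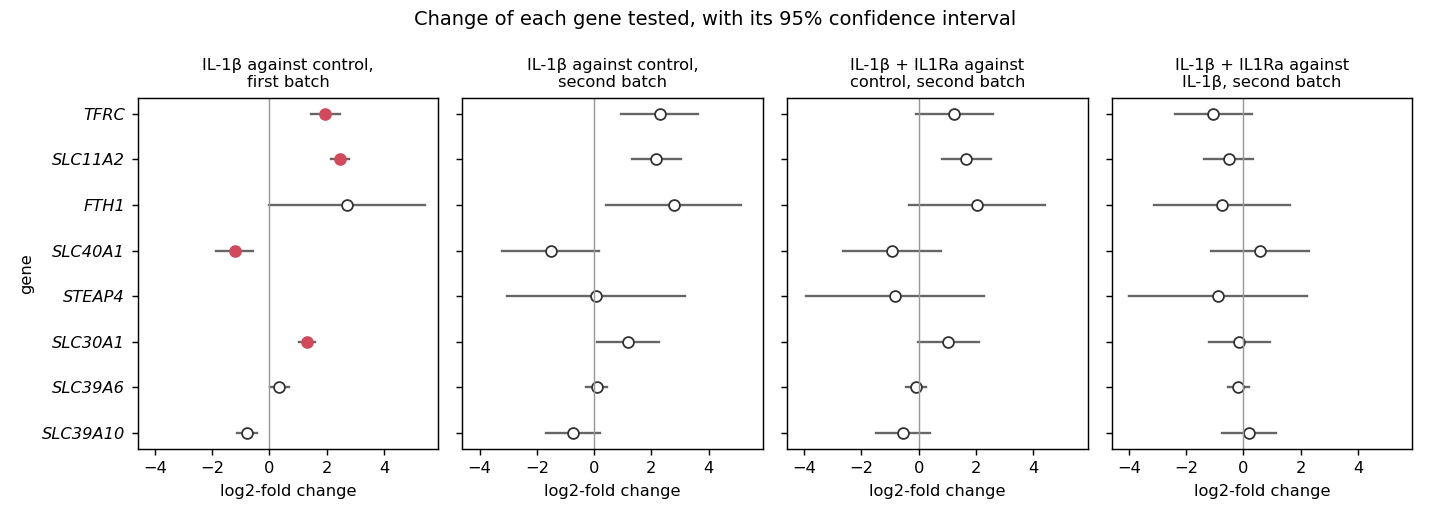
Log2-fold changes of the tested members (limma on log2(normalised count + 1)) with 95% confidence intervals in the 4 comparisons, with red points for DE genes and open points for the others. TFRC (1.96), SLC11A2 (2.47), SLC30A1 (1.31) and SLC40A1 (−1.21) were DE in the first batch, and no member was DE in the second batch without the line as a block.

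The other genes of zinc and iron handling were taken from a list of 70 genes in 8 groups, of which 61 had a row and 47 were tested in each batch. The list was also made with earlier results of these data known. With IL-1β in the first batch, 7 of 47 were upregulated and 3 were downregulated (4.91% and 7.9% of all tested genes), and the median log2-fold change was 0.24, against −0.0034 over all genes. The zinc groups held none of these 10 genes (limma with Benjamini-Hochberg adjustment). Of 7 ZIP importers 0 were DE, with 6 at an unadjusted p under 0.05, where 12.8% of all tested genes were DE and 39.5% had such a p. Of 5 ZnT exporters 0 were DE, with 4 at such a p, and of the zinc-sensing genes MTF1 and MTF2, 0 were DE and 0 had such a p. The listed metallothionein genes, whose products bind zinc in the cytosol, were not analysed here. SLC30A7, a ZnT transporter of the secretory pathway named after its values were seen, was 0.83 higher on the log2 scale (adjusted p = 0.00585), under the fold threshold.

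Among 4 genes of iron storage and ferritin turnover, FTL rose. FTL encodes the light chain that pairs with FTH1 in ferritin, and it had 24617, 16769, 14591, 12773 and 17545 normalised counts in control lines 1 to 5 and 147888, 67817, 55551, 37873 and 74491 with IL-1β. The groups did not overlap and line 1 was highest in both, as for FTH1, but line 5, the lowest for FTH1, was the second highest for FTL. The log2-fold change was 2.04 (SE 0.322, n = 5, limma with Benjamini-Hochberg adjustment, adjusted p = 0.00143).

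CP, which encodes the ferroxidase ceruloplasmin that works beside ferroportin, rose from 705 to 2823 normalised counts in control to 4912 to 20570 with IL-1β, which was 3.05 on the log2 scale (SE 0.492, adjusted p = 0.00159, limma with Benjamini-Hochberg adjustment). It was the larger change of the 2 tested genes of iron export and ferroxidases and went the opposite way to SLC40A1. Of 9 genes of haem breakdown and synthesis 3 rose: HMOX1 (1.67), whose product frees iron from haem, BLVRB (1.88), which reduces biliverdin, and ALAS1 (1.33), the first enzyme of haem synthesis. Of 6 genes of iron sensing and the hepcidin pathway 2 rose: ACO1 (1.42), which encodes the iron regulatory protein IRP1, and NEO1 (1.00), a receptor that binds hemojuvelin. NEO1 was at the fold threshold and was not DE without line 2, 4 or 5 (1.08, 0.91 and 0.77).

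Of 12 genes of iron uptake and reduction 3 fell. TF, which encodes transferrin, was low throughout, at 20.9 to 59.6 normalised counts in control and 0 to 12.5 with IL-1β (log2-fold change −3.09, SE 0.650, adjusted p = 0.00610, limma with Benjamini-Hochberg adjustment). LCN2, which encodes a lipocalin that binds iron-carrying siderophores, fell by 2.08 on the log2 scale (SE 0.461, adjusted p = 0.00776). STEAP2, a metalloreductase related to STEAP4, fell by 1.09 (SE 0.265, adjusted p = 0.0123). LCN2 was not DE without line 5 (−1.81, adjusted p = 0.0518), nor was STEAP2 without line 4 or line 5 (−0.97 and −0.94). STEAP1, another metalloreductase, was at −1.03 (adjusted p = 0.0540) and was DE with the line as a block (adjusted p = 0.0307). TFRC and SLC11A2, which rose, belong to the same uptake route.

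In the second batch IL-1β left 0 of the 47 DE, and 11 had an unadjusted p under 0.05 (limma with Benjamini-Hochberg adjustment), where 0.341% of all tested genes were DE and 11.4% had such a p. With the line as a block 5 were DE, all higher (5.18% of all genes were DE and 2.59% were DE and higher): FTL (1.96), CP (4.29), HMOX1 (2.34), ALAS1 (1.06) and ACO1 (1.58, adjusted p = 0.0123). Between IL-1β with IL1Ra and IL-1β alone 0 of 47 were DE, with 1 at an unadjusted p under 0.05 (2.78% of all genes), and against control 0 were DE, with 7 at such a p (5.67% of all genes). HMOX1 had 17833, 14241 and 12791 normalised counts with IL-1β and 14000.4, 13779.8 and 16655 with IL1Ra in lines 6 to 8, against 8660, 1802 and 1598 in control. The HMOX1 libraries with IL1Ra thus lay within the range of IL-1β alone.

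**Figure D4:**
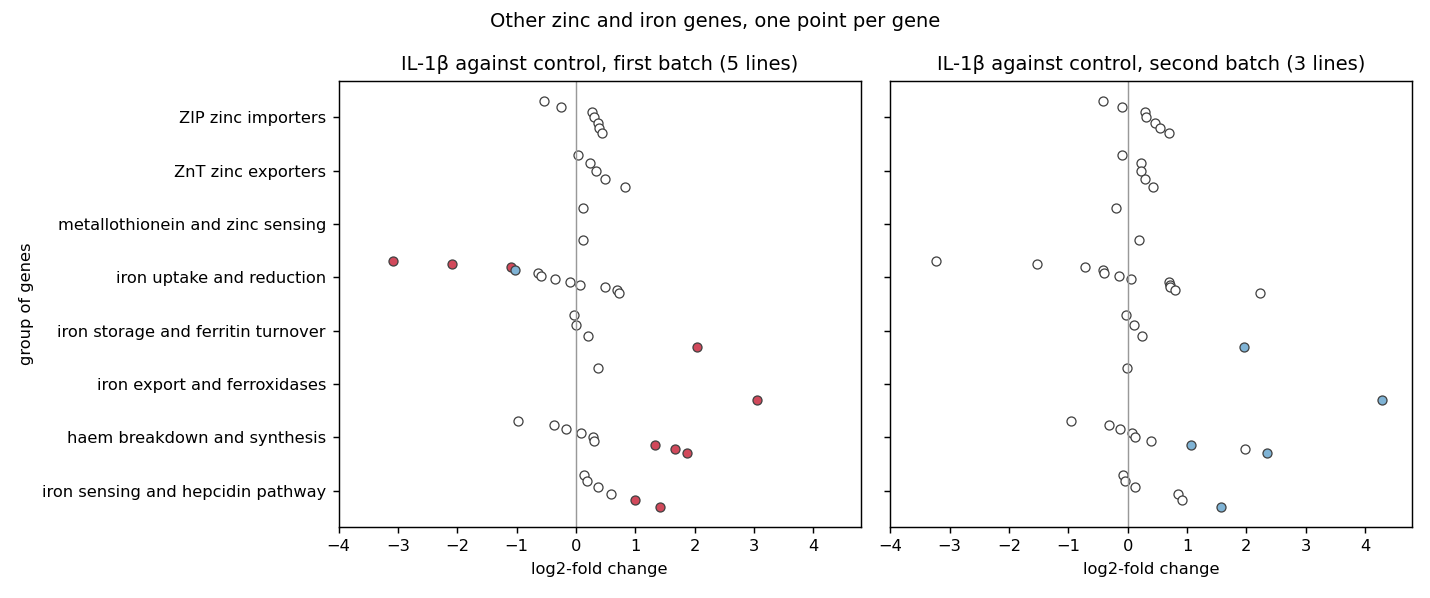
Log2-fold changes of the other tested zinc and iron genes between IL-1β and control, by group, in the first and second batch, with red points for DE genes, blue points for genes DE only with the line as a block and white points for the others. CP (3.05), FTL (2.04), BLVRB (1.88) and HMOX1 (1.67) rose and TF (−3.09) and LCN2 (−2.08) fell in the first batch, while no ZIP or ZnT gene was DE.

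For each DE member, the tested gene with the most similar pattern was found by Pearson's r over the 10 first-batch libraries, which share the difference between conditions and the tenocyte lines, so r is a description only. The gene ranked first was CXCL2 for SLC11A2 (r = 0.997, and 0.946 over the 9 second-batch libraries), a chemokine gene with close copies whose counts are uncertain. For SLC30A1 it was PHF1 (0.989 and 0.654), for TFRC TMEM63B (0.975 and 0.504) and for SLC40A1 TMX1 (0.968 and 0.431). Genes ranked next were nearly tied, such as A2ML1 for TFRC (0.974 and 0.942), named after its values were seen.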

How the data were processed

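Equine tenocyte RNA was sequenced from 19 libraries, of which 10 are first-batch and 9 second-batch. The signal values deposited by the authors are DESeq2-normalised gene counts (DESeq2 1.36 in R 4.2.1, per the labels), made from paired-end reads with Salmon on the EquCab3.0 transcriptome and tximport. Each batch was normalised in its own table. More than one sequencing provider is named in the study's methods, but libraries are not tied to them. Low values fell near whole reads (within 0.05 of a read) in 64.0% to 73.3% (first batch) and 56.0% to 73.8% (second batch) of cases, so reads could not be recovered and count models were not used. No libraries were identical (0 pairs). Names were matched to a RefSeq table of a newer horse assembly (23423 of 29196, 80.2%), which gives no usable coordinates, and 25 names were dates.

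What was computed here: log2(normalised count + 1) of genes reaching 10 in 5 (first) or 3 (second) or more libraries was tested with lmFit and eBayes (trend) of limma 3.58.1 under R 4.3.3 and adjusted by Benjamini-Hochberg over the 14719 or 16705 genes tested. The 9 second-batch libraries were fitted together. The members and all gene lists were chosen with earlier results of these data known. Named were all members, the DE genes of the zinc and iron list (at most the 15 largest) and, for each DE member, the most correlated tested gene that is no LOC number. The fits were tested on simulated data.

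Libraries of one line share a donor, so lines pair the libraries. Their deviations from the condition means had correlations within a line of 0.35 to 0.58 (first batch) and 0.54 to 0.79 (second batch), and between lines of −0.36 to 0.29 and −0.62 to 0.25. The study's methods name DESeq2 and state no block or other covariate, so the fit without a block was taken as the main one, with limma in place of a count model, and the block is an alternative. Other alternatives were pseudocounts, filters, scalings, no trend, 2 conditions only, adjusted p alone and leaving out each line.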

Additional observations from a re-analysis of the deposited data

Results flagged for a closer look

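Among 18 groups of 5 first-batch libraries (9 members in 2 conditions), 3 had a library far from the others by Dixon's criterion. Chance marks about 1 in 20 groups of normally distributed values. The criterion was applied to normalised counts without a log, so that rate need not hold here. STEAP4 was at 56.6 normalised counts in the control of line 1, where the next highest control was 11.4. STEAP4 was at 29.2 in the IL-1β library of line 4, where the next was 9.75. SLC39A8 was at 10.98 in the IL-1β library of line 1, where the next was 4.90. All 3 values lie in genes too low to be tested in the first batch.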

How the results depend on the processing

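Of 407 values of the members' log2-fold changes under other settings, 399 kept their direction. The other 8 are those given next, LCN2 apart. For IL-1β against control in the second batch, SLC39A6 (−0.10) and STEAP4 (−0.095) turned on rescaling to equal library sums, which moved the median of all genes from −0.0084 to −0.19, and STEAP4 also without line 6 (−0.76) or line 8 (−0.89), with a range of −0.89 to 1.83 over the lines left out. For both agents against control, SLC39A6 ranged from −0.17 to 0.033 (without line 6) and STEAP4 from −2.73 to 0.60 (without line 7). Between both agents and IL-1β alone, SLC30A1 ranged from −0.67 to 0.44 (without line 6) and STEAP4 from −1.98 to 0.56 (without line 8). LCN2 with IL-1β in the second batch ranged from −2.67 to 0.16 (without line 6). The cause was not tested.

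The count of DE members between IL-1β and control in the second batch, 0, became 3 with the tenocyte line as a replicate block, 1 with 2 conditions only, and 0 to 2 when 1 line was left out (2 without line 6). In the first batch it was 3 (without line 4) to 5 (without line 5). Beyond FTH1 in the first batch, TFRC, SLC11A2 and FTH1 in the second, STEAP1 (first) and FTL, CP, HMOX1, ALAS1 and ACO1 (second), the block changed no call of a member or listed zinc or iron gene named here. Some cell type markers did change call with the block, among them PECAM1 (first batch) and 2 tenocyte markers (second batch). NEO1 was under the fold threshold when values were rescaled (0.98) or quantile scaled (0.96). HMOX1 (2.99) and ACO1 (1.88) were DE in the second batch without line 6, and ACO1 with quantile scaling (1.503).

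Over all genes, 4078 passed on adjusted p alone in the first batch, against 1885 with the fold threshold. In the second batch, 57 genes were DE between IL-1β and control, against 34 without trend, 865 with the block, 32 with 2 conditions only, and 324, 0 and 0 without lines 6, 7 and 8. Between both agents and control, 2 genes became 1 on rescaling, 5 with quantile scaling, 42 with the block, 0 with 2 conditions only, and 36, 0 and 0 without lines 6, 7 and 8. Between both agents and IL-1β, 0 became 1 with the block and 10 without line 6.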
